A study of Mus musculus with 14 samples.

Results

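The genes described here are 9 core genes of the hedgehog pathway, Gli1, Gli2, Gli3, Ptch1, Hhip, Smo, Sufu, Boc and Gas1. They were listed by name for their place in the pathway. The rule used no measured value, but the list was chosen with earlier results of these data known. All 9 were found among the 41381 genes of the deposited expression table, and all 9 were among the 17325 genes with enough signal to be tested. The table holds RNA-seq profiles of granule neuron progenitors (GNPs) isolated on a Percoll gradient from mouse cerebella at postnatal day (P) 7. Expression is given as TPM, the estimated share of a gene's transcripts among all transcripts of a library, which is corrected for transcript length so that levels of different genes can be compared. WT libraries (n = 5) are labelled Chd7 wild type or Atoh1-Cre negative, and WT animals elsewhere in the study carry Chd7 f/f without Cre. Het libraries (n = 5) are labelled Chd7 het mutant or Atoh1-Cre::Chd7 f/+, and Hom libraries (n = 4) Chd7 hom mutant or Atoh1-Cre::Chd7 f/f. The strain is written C56Bl6/J for the libraries of 1 deposit and C57BL/6 for those of another. Cre is driven here by Atoh1 sequences, active in the cells from which excitatory neurons of the cerebellum arise, granule cells among them. Purkinje cells are not targeted by this Cre. The study also describes Chd7 protein that remained in the posterior lobe. The study sequenced the libraries in 2 batches, with WT 1 to 3, Het 1 to 3 and Hom 1 and 2 in batch 1 and the other 6 libraries in batch 2. The labels do not say that the libraries of a group came from separate animals, so the p-values below measure the spread between these libraries.

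Hedgehog signalling sets the pace of division in GNPs. Sonic hedgehog, secreted by Purkinje cells, binds the receptor Ptch1 together with the coreceptors Boc, Gas1 and Cdon. Ligand binding relieves the block that Ptch1 places on Smo, a membrane protein that then acts through the primary cilium to release the Gli transcription factors from Sufu. Gli2 is the main activator, Gli3 acts largely as a repressor, and Gli1, Ptch1 and Hhip are themselves transcribed in response to the signal, so that their RNA is often read as a measure of pathway activity. Chd7 encodes an ATP-dependent chromatin remodeller.

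The 250 bases before the RefSeq start of 3 members are shown in lower case, read 5′ to 3′ on the minus strand of GRCm38.p6. Gas1 is shown because it was the only member that passed the test between genotypes, and Ptch1 and Gli2 because their difference between Het and WT varied most between the sequencing batches.
Gas1, chr13:60177536-60177785: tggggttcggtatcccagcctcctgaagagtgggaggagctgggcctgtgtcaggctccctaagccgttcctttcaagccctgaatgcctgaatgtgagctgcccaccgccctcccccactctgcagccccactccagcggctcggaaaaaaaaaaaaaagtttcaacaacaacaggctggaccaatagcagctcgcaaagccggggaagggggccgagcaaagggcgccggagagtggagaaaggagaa
Ptch1, chr13:63565736-63565985: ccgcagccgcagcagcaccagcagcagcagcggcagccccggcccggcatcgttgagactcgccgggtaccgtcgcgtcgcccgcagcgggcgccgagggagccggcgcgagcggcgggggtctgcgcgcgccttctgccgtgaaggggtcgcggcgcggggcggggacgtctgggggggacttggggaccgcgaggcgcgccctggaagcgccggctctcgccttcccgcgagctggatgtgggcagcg
Gli2, chr1:119053620-119053869: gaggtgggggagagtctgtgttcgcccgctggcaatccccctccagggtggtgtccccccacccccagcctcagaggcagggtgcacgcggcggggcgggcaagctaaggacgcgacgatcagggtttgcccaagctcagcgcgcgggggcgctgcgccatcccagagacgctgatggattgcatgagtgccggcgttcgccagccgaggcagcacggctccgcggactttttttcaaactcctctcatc
The RefSeq start of Gas1 lay 170 bases upstream of the annotated start in GENCODE, that of Gli2 was the same base in both, and that of Ptch1 lay 7863 bases inside the GENCODE gene. RefSeq windows of 300 bases, which add the 50 bases after the start, were matched for 7 members (Gas1, Gli2, Gli3, Hhip, Ptch1, Smo and Sufu). Their GC content ran from 56.3% in Sufu to 76.3% in Ptch1, against a median of 52.7% over all 32851 windows, and Ptch1 held 47 CpG dinucleotides against a median of 7. The Gli consensus TGGGTGGTC, or GACCACCCA on the other strand, was in 0 of the 7 windows and in 0.253% of all windows. Its 7-base core TGGGTGG, or CCACCCA, which lies within the longer motif, was in 0 of the 7 and in 9.3% of all. These letters were searched only in these short windows.

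Chd7 itself did not follow the labels in batch 1. In that batch WT 1 to 3 had 121, 152 and 132 TPM for the whole gene, Het 1 to 3 had 166, 181 and 150 TPM, and Hom 1 and 2 had 172 and 185 TPM. In batch 2 WT 4 and 5 had 203 and 272 TPM, Het 4 and 5 had 149 and 137 TPM, and Hom 3 and 4 had 150 and 126 TPM. The libraries labelled Hom and Het were thus above those labelled WT in batch 1, Het 3 excepted, and below them in batch 2. The difference in the Hom effect between batches was -1.18 on the log2 scale (adjusted p = 0.127). Gene-level TPM sums over all exons of Chd7 and does not isolate the deleted part, so this is a weak check of the labels, and the genotypes below are those of the labels. The libraries held granule lineage RNA, with Atoh1, the factor that specifies granule progenitors, at 20.8 to 50.6 TPM and Pax6 at 551 to 911 TPM. They also held RNA of other cells in unequal amounts. The summed TPM of 10 astroglial and Bergmann glial markers was 1244 to 1938 in WT 1 to 3 and 1228 in Het 3, against 378 to 940 in the other 10 libraries, and no marker of this list was at 0. The summed TPM of 9 endothelial and mural markers was 26.6 to 49.8 in the same 4 libraries and 135 to 540 in the others, highest in Het 2 and then in Hom 2, again with no marker at 0. The marker list of postmitotic granule neurons summed to 2591 to 3265 for WT, 2742 to 2947 for Het and 2115 to 2632 for Hom. Of its 11 genes tested, Neurod1, Syt1, Tubb3 and Slc17a7 fell in Hom and Grin2c, at 0.32 to 4.89 TPM, rose. Whether fewer cells of a type or less RNA per cell lie behind such values cannot be told apart in bulk RNA.

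**Figure D1:**
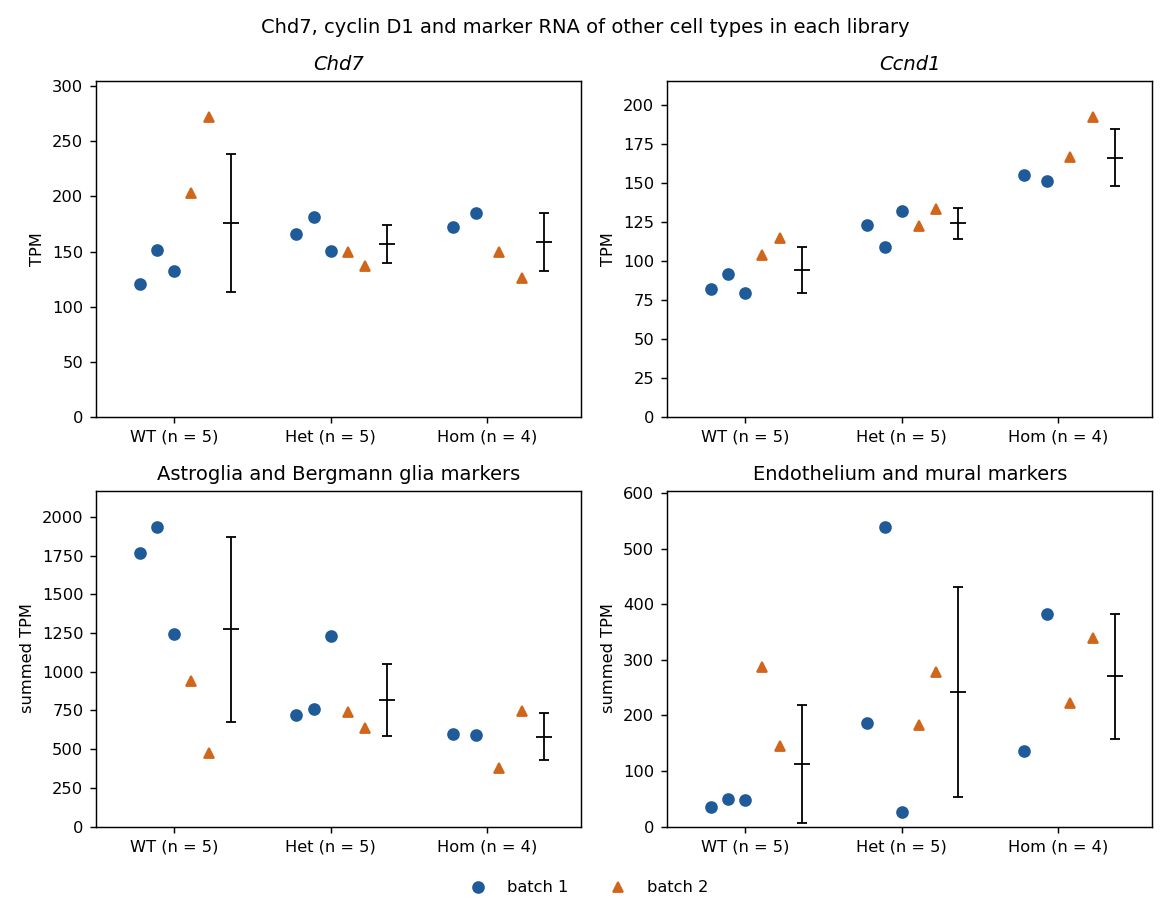
TPM of Chd7 and Ccnd1 and summed TPM of 2 marker lists (y axes, linear from 0) for each library, by labelled genotype (x axes), with circles for batch 1 and triangles for batch 2. Black marks give the mean and SD of each group. All 4 Hom libraries lie above all WT libraries for Ccnd1, while Chd7 is higher in WT only in batch 2, and WT 1 to 3 and Het 3 are the highest for the astroglial and the lowest for the endothelial list.

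Across the 5 WT libraries the members spanned more than an order of magnitude. Sufu had the highest mean level at 85.6 ± 11.8 TPM (SD), followed by Ptch1 at 74.5 ± 14.1, Boc at 70.9 ± 8.0, Smo at 69.7 ± 5.7, Gli1 at 57.3 ± 7.3 and Gli2 at 55.5 ± 16.2 TPM. Each of these 6 had a WT range that overlapped that of its neighbour in the order. Gas1 was lower at 28.3 ± 2.5 TPM and overlapped neither Gli2 above it nor Gli3 below it. Gli3 at 9.20 ± 0.95 TPM and Hhip at 6.70 ± 1.19 TPM were the lowest and overlapped. The activator Gli2 was above the repressor Gli3 in all 14 libraries. The mean of Sufu in WT ranked 2360 among the 41381 genes and that of Hhip ranked 11508.

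Ptch1 (ENSMUSG00000021466), the receptor that holds Smo inactive and also a transcriptional target of the pathway, lies on the minus strand of chromosome 13 at 63508328 to 63573598 (GRCm38). Its level was 61.5, 69.3, 63.6, 83.5 and 94.4 TPM in WT 1 to 5, 76.6, 84.0, 81.3, 73.7 and 85.4 TPM in Het 1 to 5 and 89.5, 85.7, 94.98 and 90.4 TPM in Hom 1 to 4. The Hom libraries were all above WT 1 to 4 and lay on both sides of WT 5. With batch as a term, Ptch1 was 0.27 higher in Hom than in WT on the scale log2(TPM + 1), on which all changes below are given (SE 0.09, 95% confidence interval 0.07 to 0.47, unadjusted p = 0.0121). The adjusted p of 0.18 did not pass the threshold of 0.05. An exact permutation test of the genotype labels within batches gave p = 0.0333 (two-sided, 60 arrangements, smallest possible p 0.0167). The difference was 0.43 in batch 1 alone and 0.06 in batch 2 alone, and it was 0.12 when the astroglial and endothelial marker levels were added to the fit, an alternative chosen after seeing the data. In Het the difference from WT was 0.12 (adjusted p = 0.877).

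Boc (ENSMUSG00000022687, chromosome 16, 44485049 to 44558897, minus strand) encodes an immunoglobulin-family coreceptor. Its level was 63.0, 67.7, 64.8, 79.2 and 79.9 TPM in WT 1 to 5, 80.2, 72.8, 77.8, 74.4 and 90.2 TPM in Het 1 to 5 and 81.9, 69.8, 92.2 and 93.0 TPM in Hom 1 to 4. Both Hom libraries of each batch were above every WT library of their batch, but Hom 2 lay below WT 4 and 5. The difference between Hom and WT was 0.22 (SE 0.07, 95% confidence interval 0.07 to 0.38, unadjusted p = 0.00897, adjusted p = 0.152). It was 0.21 in batch 1 alone and 0.22 in batch 2 alone, and the exact permutation test reached the smallest p it allows, 0.0167. Between Het and WT the difference was 0.16 (adjusted p = 0.777).

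Gas1 (ENSMUSG00000052957, chromosome 13, 60174405 to 60177365, minus strand) encodes a membrane-anchored coreceptor and was the only member to pass the test. Its level was 25.7, 26.1, 28.0, 31.4 and 30.3 TPM in WT 1 to 5, 31.6, 32.4, 34.9, 34.4 and 33.8 TPM in Het 1 to 5 and 35.3, 30.9, 39.6 and 41.1 TPM in Hom 1 to 4. All 5 Het libraries were above all WT libraries, and Hom 2 was the only Hom library within the WT range. Gas1 rose by 0.34 in Hom (SE 0.07, 95% confidence interval 0.20 to 0.49, adjusted p = 0.0156), a fold of 1.27. The rise was 0.30 in batch 1 alone and 0.38 in batch 2 alone, where the adjusted p was 0.206 and 0.22. The exact permutation test gave its smallest possible p of 0.0167, and a Kruskal-Wallis comparison of all 3 genotypes by exact enumeration, on values with the batch means removed, gave p = 2.85e-04. Gas1 passed the threshold in 22 of 29 alternative analyses, with the change between 0.30 and 0.40 in all of them. It missed it without Hom 1 (adjusted p = 0.0638), without Hom 4 (adjusted p = 0.0593), without the batch term (adjusted p = 0.0626), without the Het libraries (adjusted p = 0.0638) and with the marker levels in the fit (adjusted p = 0.0659). In Het the difference from WT was 0.24 (SE 0.06, 95% confidence interval 0.10 to 0.38, unadjusted p = 0.00273, adjusted p = 0.468). The exact permutation p was 0.0167 (120 arrangements), the smallest that the two-sided test allows with groups of equal size in each batch. Between Hom and Het the difference was 0.11 (95% confidence interval -0.04 to 0.26).

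Hhip (ENSMUSG00000064325, chromosome 8, 79965851 to 80058006, minus strand) encodes a membrane protein that binds and sequesters the ligand. Its level was 4.96, 8.19, 6.27, 6.96 and 7.11 TPM in WT 1 to 5, 5.23, 9.39, 5.99, 7.01 and 6.79 TPM in Het 1 to 5 and 7.99, 16.5, 7.43 and 9.70 TPM in Hom 1 to 4. The highest values in Het and in Hom were in Het 2 and Hom 2, the 2 libraries with the most endothelial marker RNA (540 and 383 summed TPM). In WT the highest value was in WT 2, where the endothelial markers summed to 49.8 TPM. WT 4 had the most endothelial marker RNA in WT (286 summed TPM), with Hhip at 6.96 TPM. Hhip had the largest difference of the members between Hom and WT, 0.52 (SE 0.22, 95% confidence interval 0.06 to 0.99, unadjusted p = 0.0309), but the adjusted p was 0.272. Without Hom 2 the difference was 0.27 (adjusted p = 0.532), and with the marker levels in the fit it was 0.35 (adjusted p = 0.507). The part of other cells in these values was not tested further. In Het the difference from WT was 0.03, and it was below 0 without Het 2 (-0.08).

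**Figure D2:**
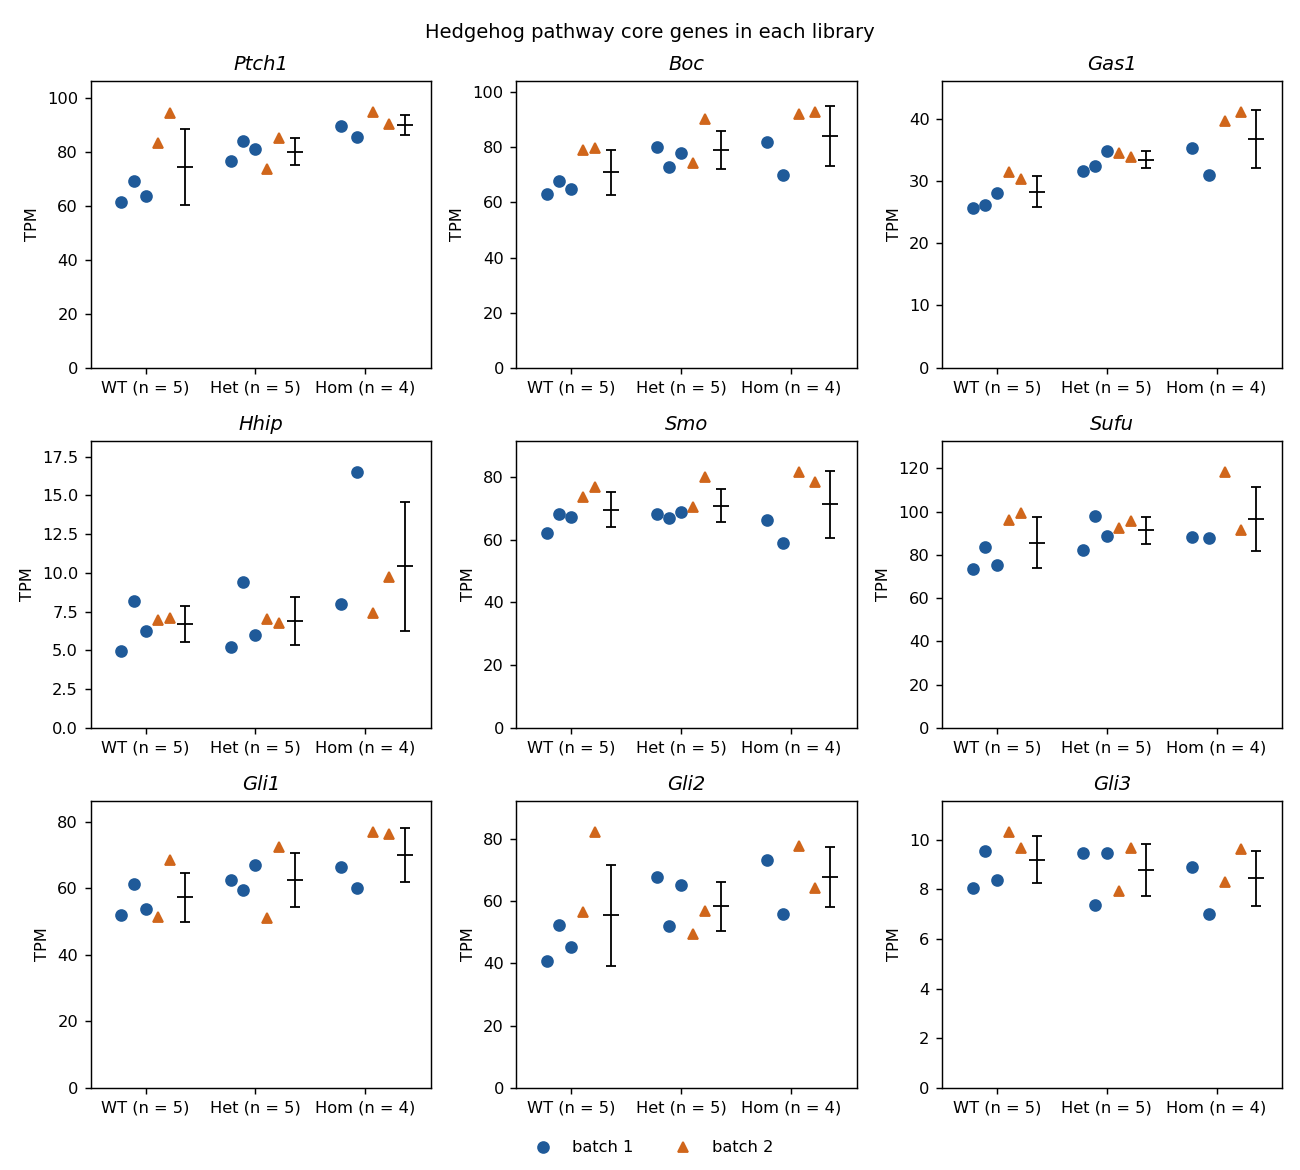
TPM (y axes, linear from 0) of the 9 members in each library, by labelled genotype (x axes), with circles for batch 1 and triangles for batch 2, and the mean and SD of each group in black. All Het values of Gas1 lie above all WT values. Hom 2 stands alone at 16.5 TPM for Hhip, and for Ptch1, Boc and Smo the WT libraries of batch 2 lie above those of batch 1.

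Smo (ENSMUSG00000001761, chromosome 6, 29735503 to 29761365, plus strand), the transducer that Ptch1 holds in check, passed the test in no contrast between genotypes. Its level was 62.2, 68.3, 67.3, 73.8 and 76.9 TPM in WT 1 to 5, 68.1, 66.9, 68.9, 70.5 and 80.0 TPM in Het 1 to 5 and 66.2, 58.9, 81.7 and 78.5 TPM in Hom 1 to 4. The genotypes overlapped, whereas all 6 libraries of batch 2 were above all 8 of batch 1. That separation of the batches held for 2.1% of all genes tested. Between Hom and WT the difference was 0.003 with a 95% confidence interval of -0.13 to 0.14 (adjusted p = 0.99), and it was -0.03 under median-ratio scaling and -0.01 under quantile normalization.

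Sufu (ENSMUSG00000025231, chromosome 19, 46396896 to 46488804, plus strand) encodes the protein that retains Gli factors in the cytoplasm. Its level was 73.6, 83.8, 75.2, 96.4 and 99.3 TPM in WT 1 to 5, 82.3, 98.2, 88.5, 92.3 and 95.5 TPM in Het 1 to 5 and 88.3, 87.7, 118 and 91.4 TPM in Hom 1 to 4. Within batch 1 all Hom libraries were above all WT libraries, and in batch 2 Hom 3 was above and Hom 4 below both WT libraries. The difference between Hom and WT was 0.15 (95% confidence interval -0.03 to 0.33, adjusted p = 0.454). It was 0.08 without Hom 3 and 0.03 with the marker levels in the fit.

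Gli1 (ENSMUSG00000025407, chromosome 10, 127329882 to 127341974, minus strand) encodes the Gli activator that is itself induced by the signal. Its level was 52.0, 61.2, 53.7, 51.2 and 68.4 TPM in WT 1 to 5, 62.6, 59.4, 67.0, 51.0 and 72.3 TPM in Het 1 to 5 and 66.5, 60.2, 76.9 and 76.2 TPM in Hom 1 to 4. Hom 3 and 4 were above every WT library, and Hom 1 and 2 were within the WT range. The difference between Hom and WT was 0.28 (SE 0.11, 95% confidence interval 0.03 to 0.52, unadjusted p = 0.0289, adjusted p = 0.266), with an exact permutation p of 0.05. It stayed above 0 in each of 29 alternative analyses, from 0.18 in batch 1 alone to 0.37 in batch 2 alone, and passed the threshold in 0 of them. In Het the difference was 0.12 (adjusted p = 0.895).

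Gli2 (ENSMUSG00000048402, chromosome 1, 118834132 to 119053619, minus strand), the factor that carries most of the activating signal, varied most within WT. Its level was 40.8, 52.4, 45.3, 56.7 and 82.3 TPM in WT 1 to 5, 67.9, 52.2, 65.3, 49.6 and 56.8 TPM in Het 1 to 5 and 73.3, 56.0, 77.9 and 64.3 TPM in Hom 1 to 4. WT 5 was the highest of all 14 libraries and also had the highest Chd7 value. The difference between Hom and WT was 0.30 (95% confidence interval -0.06 to 0.66, adjusted p = 0.439), and it was 0.47 in batch 1 alone and 0.05 in batch 2 alone. Gli3 (ENSMUSG00000021318, chromosome 13, 15463235 to 15730026, plus strand), which is processed to a repressor when the signal is off, was the only member with a mean below WT in Hom. Its level was 8.05, 9.55, 8.37, 10.3 and 9.69 TPM in WT 1 to 5, 9.47, 7.39, 9.47, 7.94 and 9.69 TPM in Het 1 to 5 and 8.89, 7.0, 8.29 and 9.62 TPM in Hom 1 to 4. The groups overlapped, and the difference of -0.12 had a 95% confidence interval of -0.37 to 0.12 (adjusted p = 0.675).

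In Hom against WT, 8 of the 9 members had a change above 0, with a median of 0.27, against 55.5% of all genes tested and a median of 0.02. Of the 9 members 1 was called higher (Gas1) and 0 were called lower, where called means an adjusted p under 0.05 in limma. Over all genes tested 1.27% were called higher and 1.41% lower. At an unadjusted p under 0.05, 5 members were higher (Gas1, Boc, Ptch1, Gli1 and Hhip) and 0 were lower. Over all genes tested 8.51% were higher and 1112 of 17325 lower. The libraries of Hom were above those of WT within each batch for 2 members, Boc and Gas1, against 5.44% of genes tested, and over both batches for 0 members, against 2.91%. The members share a pathway and vary together between libraries, so these counts are a description.

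In Het against WT, 8 of 9 members again had a change above 0, against 52.3% of all genes tested. The median was 0.10, against 0.007 over all genes tested. Of the members 0 were called, and 0.00577% of all genes were. Gas1 and Boc had an unadjusted p under 0.05, against 3.2% of all genes tested in that direction. Gas1 alone had every Het library above every WT library over both batches, which held for 0.462% of genes tested. Both contrasts use the same WT libraries, so the Het and Hom values are not independent of each other. Between Hom and Het directly, 0 members were called (0.427% of all genes tested were), and Hhip alone was higher at an unadjusted p under 0.05, against 3.05% of genes tested. Hhip was 0.50 higher in Hom than in Het (unadjusted p = 0.039, adjusted p = 0.778), with an exact permutation p of 0.117.

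**Figure D3:**
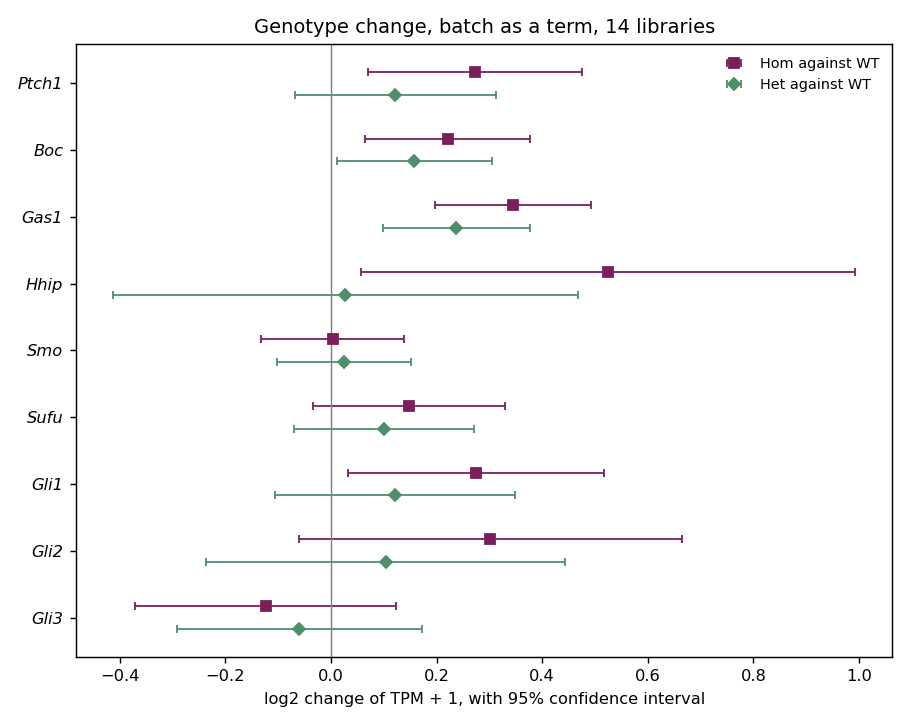
Change of each member in log2(TPM + 1) with its 95% confidence interval (x axis), for Hom against WT (squares) and Het against WT (diamonds), fitted over 14 libraries with batch as a term. The Hom interval lies above 0 for Ptch1, Boc, Gas1, Hhip and Gli1, and Smo and Gli3 include 0 in both contrasts.

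The members also differed between the sequencing batches. Smo was 0.22 higher in batch 2 than in batch 1 (95% confidence interval 0.11 to 0.33, adjusted p = 0.0142) and Boc was 0.22 higher (95% confidence interval 0.09 to 0.34, adjusted p = 0.0279). These 2 members were called higher in batch 2, against 7.88% of all genes tested, and 0 were called lower, against 5.61%. Sufu (0.21, adjusted p = 0.0546) and Gas1 (0.17, adjusted p = 0.0541) were just over the threshold. With Het 3 placed in batch 2, as the wording of its labels would have it, 0 members were called between batches, and Smo had an adjusted p of 0.0506. Het 3 apart, the 2 batches also differ in the labelled strain name, and strain, sequencing run and the amount of other cells cannot be told apart.

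The genotype differences of Ptch1 and Gli2 were larger in batch 1 than in batch 2, although neither passed the adjusted test of this interaction. For Ptch1 the Het effect was 0.47 smaller in batch 2 than in batch 1 (interaction -0.47, 95% confidence interval -0.75 to -0.20, unadjusted p = 0.0028, adjusted p = 0.449), with 0.31 in batch 1 alone and -0.16 in batch 2 alone. The Hom effect on Ptch1 had an interaction of -0.37 (unadjusted p = 0.0156, adjusted p = 0.194). For Gli2 the Het interaction was -0.77 (95% confidence interval -1.35 to -0.19, unadjusted p = 0.0132, adjusted p = 0.486), with 0.41 in batch 1 alone and -0.36 in batch 2 alone. None of the 9 members was called in either interaction, where limma called 0.0115% of all genes for Hom and 0.00577% for Het. Below an unadjusted p of 0.05 and with a smaller effect in batch 2 stood 1 member for Hom, against 8.85% of genes tested, and 2 members for Het, against 5.82%. The WT libraries themselves stood apart between batches. Ptch1 averaged 64.8 TPM in WT 1 to 3 and 89.0 TPM in WT 4 and 5, a wider gap than between any genotypes within batch 2. WT 1 to 3 are also high in astroglial and low in endothelial marker RNA, a trait they share with Het 3, where Ptch1 was at 81.3 TPM, and the part of these cells was not tested beyond the fit with marker levels.

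**Figure D4:**
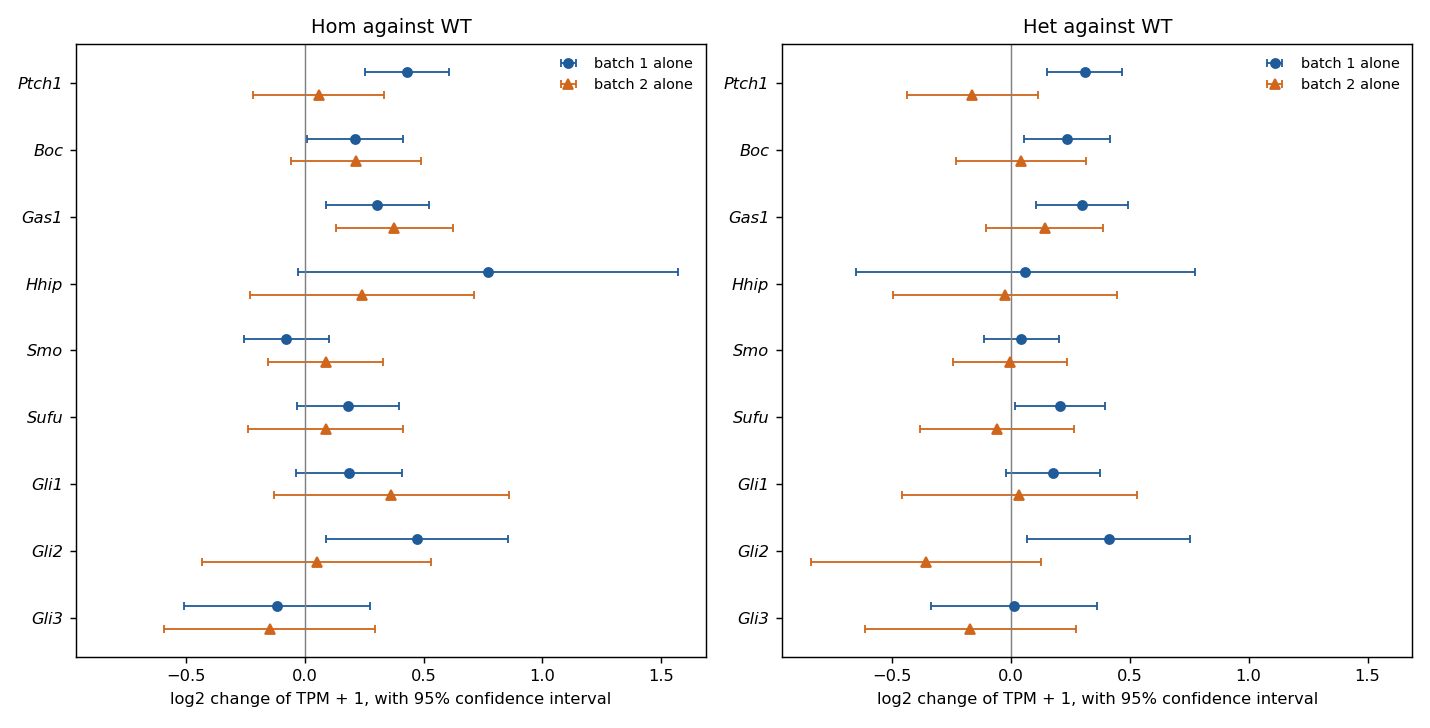
Change of each member in log2(TPM + 1) with its 95% confidence interval (x axes), fitted in batch 1 alone (circles) and in batch 2 alone (triangles), for Hom against WT and Het against WT. Gas1 and Boc are near the same value in both batches for Hom, while Ptch1 and Gli2 lie above 0 in batch 1 and near or below 0 in batch 2.

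No gene of the wider pathway was called between genotypes. Of 52 further pathway genes in 4 lists (ligands and their release, receptors and Smo control, Gli control, cilium), 46 were tested. Of these, 0 were called in Hom against WT, in Het against WT or between Hom and Het. Over all genes tested, 1.27% were called higher and 1.41% lower in Hom against WT. For Het against WT 0.00577% were called, and between Hom and Het 0.427%. At these shares few or no calls would be expected among these 46 genes. Their median change in Hom was 0.09 against 0.02 over all genes tested, and 36 of 46 (78.3%) were above 0 against 55.5%. At an unadjusted p under 0.05, 7 of the 46 were higher and 0 lower, against 8.51% of all genes tested higher and 1112 of 17325 lower. Shh, the ligand, was close to 0, at 0.09 to 0.16 TPM in WT 1 to 3 and 0.15 TPM in Het 3, and at most 0.05 TPM elsewhere. Those 4 libraries also had the most RNA of Purkinje cell markers, the cells that make the ligand (99 to 207 summed TPM against 42.8 to 67.0). Cdon, the third coreceptor, was low at 1.18 to 1.58 TPM in WT, 0.88 to 1.96 TPM in Het and 1.59 to 2.65 TPM in Hom, and its difference of 0.47 between Hom and WT did not pass the test (adjusted p = 0.175). Kif7, a ciliary kinesin that regulates Gli processing, differed by 0.09 (adjusted p = 0.783) and Gpr161, a receptor that keeps protein kinase A active at the cilium, by 0.02 (adjusted p = 0.947).

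Between batches, 4 of the 46 were called higher in batch 2, against 7.88% of all genes tested, and 5 lower, against 5.61%. Whether these shares differ from the background was not tested. Mgrn1 (0.36), a ubiquitin ligase that lowers Smo, Prkaca (0.28), the catalytic subunit of protein kinase A, Grk2 (0.26), a kinase acting on Smo, and Ift27 (0.25), an intraflagellar transport protein, were higher. Efcab7 (-0.80), Ift80 (-0.41), Dync2h1 (-0.37), Itch (-0.28) and Kif3a (-0.22) were lower, among them the retrograde ciliary motor subunit Dync2h1 and the anterograde motor subunit Kif3a.

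Of 10 genes listed as targets of the pathway in progenitors, 2 were higher and 2 lower in Hom at an unadjusted p under 0.05. Over all 17325 genes tested, 1475 were higher and 1112 lower at that threshold. Ccnd1, which encodes cyclin D1, was the only gene of the 10 called in Hom, against 1.27% of all genes tested called higher. Its level was 81.9, 91.9, 79.7, 104 and 114 TPM in WT 1 to 5, 123, 109, 132, 123 and 133 TPM in Het 1 to 5 and 155, 151, 166 and 192 TPM in Hom 1 to 4. Every Hom library was above every Het and WT library, and Het overlapped WT only through Het 2. Ccnd1 rose by 0.80 in Hom (SE 0.08, 95% confidence interval 0.62 to 0.97, adjusted p = 1.11e-04) and passed the threshold in 28 of 29 alternatives, batch 2 alone being the exception (0.71, adjusted p = 0.114). In Het the difference from WT was 0.40 (95% confidence interval 0.24 to 0.56, adjusted p = 0.149). Ccnd1 was also called higher in batch 2 than in batch 1, the only gene of this list called between batches. Over all genes tested 7.88% were called higher in batch 2 and 5.61% lower. Ccnd2, a second D cyclin, differed by 0.35 in Hom (adjusted p = 0.0693). Atoh1 differed by 0.01 (adjusted p = 0.991). Mycn, a proliferative target of the pathway in these cells, differed by 0.15 over both batches (adjusted p = 0.786), but the batches went opposite ways. Its level was 101, 108 and 105 TPM in WT 1 to 3 against 179 and 148 TPM in Hom 1 and 2, and 167 and 209 TPM in WT 4 and 5 against 140 and 129 TPM in Hom 3 and 4. The Hom difference of Mycn was 0.63 in batch 1 alone (adjusted p = 0.0369) and -0.48 in batch 2 alone (adjusted p = 0.239), with an interaction of -1.11 (unadjusted p = 5.25e-05, adjusted p = 0.127). The Het difference of Mycn was 0.57 in batch 1 alone and -0.43 in batch 2 alone, with an interaction of -0.99 (unadjusted p = 8.97e-05, adjusted p = 0.389). The rise of Ccnd1 was larger than the change of any of the 9 members, Gli1 and Ptch1 included, and the difference in size was not tested.

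The members varied together between libraries after the mean of each batch was removed. Pearson correlations of log2(TPM + 1) over the 14 libraries, which share the groups, were above 0 for 31 of 36 pairs, with a median of 0.49 and a range of -0.49 to 0.83. The highest were Gli1 with Boc (0.83), Gli2 with Ptch1 (0.82) and Boc with Gas1 (0.82), and the lowest was Gli3 with Hhip (-0.49). Among the 17325 genes tested, the profiles most like that of Gli1 were Mdn1 (0.95), Thada (0.95), Adpgk (0.94), C2cd3 (0.93) and Gtf3c1 (0.93). Those most like Ptch1 were Foxk1 (0.95), Polr1b (0.95), Arhgap32 (0.93), Adamts20 (0.92) and Zmiz1 (0.92), and those most like Hhip were Flrt1 (0.93), Zkscan2 (0.92), Nrxn3 (0.92), Masp1 (0.92) and Sgms1 (0.91). No other member was among the 5 nearest of these 3 genes. The correlations with these nearest genes describe these 14 libraries and are the highest of all those computed. Correlations between pairs of all genes tested were not computed, so the general level in these libraries is not known.

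**Figure D5:**
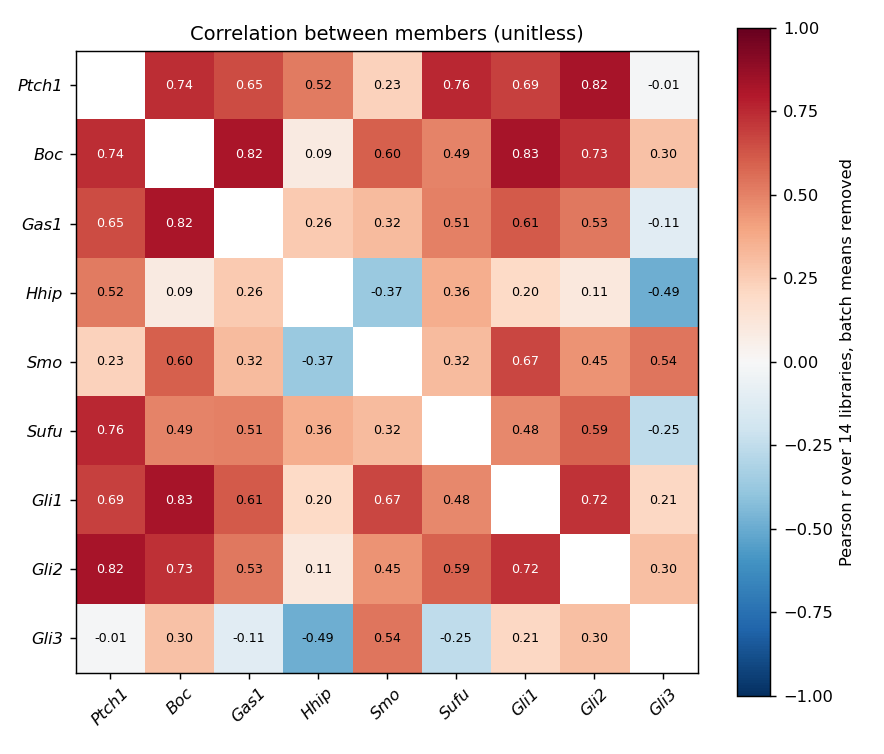
Pearson correlation between members in log2(TPM + 1) over 14 libraries with batch means removed (colour scale from -1 to 1, value in each cell, members on both axes). Ptch1, Boc, Gas1, Gli1 and Gli2 form a block of values from 0.53 to 0.83, and the 5 values below 0 all involve Gli3 or Hhip.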

How the data were processed

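RNA-seq was measured in 14 libraries of P7 GNPs (WT n = 5, Het n = 5, Hom n = 4). The authors mapped single-end reads to the mm10 transcriptome with Bowtie 1.0.0, estimated expression with RSEM 1.2.15, and deposited gene-level TPM without batch correction. TPM keeps no depth, so the depth of each library is unknown and no counting error was computed. Columns headed as controls were read as WT. Batches are those of the study's methods.

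Values were tested as log2(TPM + 1) for the 17325 genes that reached 1 TPM in 4 or more libraries, with limma 3.58.1 (R 4.3.3; genotype and batch as terms, eBayes with trend, two-sided, Benjamini-Hochberg over all genes tested, threshold 0.05). This scale understates changes of low genes. The study used a Kruskal-Wallis test after ComBat. A Kruskal-Wallis test by enumeration, on values with the fitted batch term removed, stood in for it. Single members were also tested by exact permutation within batch. The fit was checked on simulated data. Positions are from GENCODE and sequences from RefSeq, both on GRCm38.

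The members and gene lists were chosen with earlier results of these data known. The text names all members, the pathway and target genes called in a contrast, 8 named pathway genes (Shh, Cdon, Kif7, Gpr161, Mycn, Ccnd1, Ccnd2 and Atoh1), and the 5 genes most like Gli1, Ptch1 and Hhip. A further gene that the rule names is not reported here. Pax6 and the called granule neuron markers were named after their values were seen. Alternatives changed 1 choice at a time: pseudocount, filter, scaling, weights, batch handling, replicate block, samples in the fit and each library left out. Marker levels as covariates, and the omission of Het 2 with Hom 2, were added after seeing the data.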

Additional observations from a re-analysis of the deposited data

Results flagged for a closer look

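Of 27 groups of 4 or 5 libraries examined for a single value far from the rest, 2 held one, where chance gives about 1 in 20 groups. Smo was at 79.96 TPM in Het 5, the highest of 5 Het libraries, with a gap to the next that took 0.722 of the range of the group. Sufu was at 118.43 TPM in Hom 3, the highest of 4 Hom libraries, with a gap of 0.879 of the range. Both libraries belong to batch 2.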

How the results depend on the processing

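The number of members called in Hom against WT was 1 (Gas1) and fell to 0 without the batch term, in batch 1 alone, in batch 2 alone, with only the 2 genotypes compared and with the marker levels as covariates, and ranged from 0 to 1 when 1 library was left out. The number called between batches was 2 and became 4 with a mean TPM of at least 5 and 0 with Het 3 in batch 2, with a range of 1 to 3 without 1 library. Counts of members called in the other contrasts were 0 under every alternative run. Changes near 0 turned sign. Those of Smo in Hom against WT were -0.028 under median-ratio scaling, -0.010 under quantile normalization, -0.076 in batch 1 alone and -0.001 with only the 2 genotypes. In Het against WT, batch 2 alone gave -0.358 for Gli2, -0.025 for Hhip, -0.161 for Ptch1, -0.004 for Smo and -0.059 for Sufu, batch 1 alone gave 0.013 for Gli3, Het 3 in batch 2 gave -0.017 for Smo, and Hhip was -0.041 with array weights, -0.125 with the covariates and -0.094 without Het 2 and Hom 2. In Hom against Het, batch 1 alone gave -0.023 for Boc and -0.024 for Sufu, batch 2 alone gave 0.023 for Gli3 and 0.092 for Smo, the covariates gave -0.007 for Sufu, and Smo was 0.000 without the batch term, 0.021 with Het 3 in batch 2 and 0.035 without Het 2 and Hom 2. The cause was not tested. With 1 library left out, Hhip ranged from -0.078 to 0.118 in Het against WT and Smo from -0.030 to 0.061 in Hom against WT. In Hom against Het the ranges were -0.004 to 0.121 for Boc, -0.125 to 0.004 for Gli3, -0.065 to 0.036 for Smo and -0.022 to 0.107 for Sufu. Deviations of same-numbered libraries of a batch correlated at -0.235 to 0.249, the highest being Het 2 with Hom 2. Those of differently numbered libraries of a batch correlated at -0.301 to 0.14. Whether the numbers pair the libraries cannot be told from these overlapping ranges. With the replicate block in place of batch, Gas1 changed by 0.38 in Hom (adjusted p = 0.0277), 1 member was called in Hom and 0 in Het, and Smo in Hom against Het was 0.040. The block sets Hom 3, of batch 2, beside WT 3 and Het 3, of batch 1. Its Hom changes therefore also take in differences between the batches. The block changed no other call of a member. Of the other pathway genes named by rule, Ccnd2 alone changed its call with it, to a Hom difference of 0.35 (adjusted p = 0.0366) from one of 0.35 (adjusted p = 0.0693) with batch. Depth is unknown, so its part in these limits could not be given, and the confidence intervals bound what 4 or 5 libraries a group can show.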
